A study of Mus musculus with 4 samples.

Results

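The genes described here encode xenobiotic phase I and phase II enzymes. They were chosen by symbol among genes named by a probe set that names a single gene: cytochromes P450 of families Cyp1 to Cyp4, glutathione S-transferases (Gst classes a, k, m, o, p and t), UDP-glucuronosyltransferases and their relatives (Ugt) and sulfotransferases (Sult). The rule found 97 genes, measured by 122 probe sets, of the 18194 genes with such a probe set: 54 Cyp, 19 Gst, 13 Sult and 11 Ugt genes. A further 8 probe sets name several genes at once, at least 1 of them with such a symbol, and are given separately.

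The data were 4 Affymetrix Mouse430_2 arrays of whole kidneys dissected from mouse embryos at E14.5 (Theiler stage 22). The control group was 2 arrays of wild-type kidneys, strain field CD-1, each a pool of 2 kidneys, and the other group was 2 arrays of kidneys null for the signalling gene Wnt4 (allele Wnt4tm1Amc), strain field 129, each a pool of 12 kidneys. The submitters' protocol text describes CD-1 matings for all samples, so whether the strain differed between the groups is not settled. All 4 RNA samples went through 1 round of amplification, and the sex of the embryos was recorded as unknown. The comparison was set up to find genes of the renal vesicle and the nephron segments that form from it, which mutant kidneys lack. Genotype, strain field and pool size cannot be told apart, and whether the pools of a group stem from different litters is not stated, so the p-values reflect how these particular pools varied, which may be technical.

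Phase I enzymes, mainly cytochromes P450, add or expose a reactive group on a drug, steroid or fatty acid. Phase II enzymes then join it to glutathione (Gst), glucuronic acid (Ugt) or sulfate (Sult), and the product leaves the cell through carriers. In the adult kidney this machinery is best known from the proximal tubule, the nephron segment that secretes organic anions and cations.

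The Wnt4 signal was 1885 and 1770 in wild-type kidneys against 406 and 272 in mutant kidneys, a 5.28-fold lower signal (limma adjusted p = 0.000196). Of 14 proximal tubule markers tested, 12 were lower in the mutant and none was higher. Their summed signal was 10279 and 10908 in wild-type and 1499 and 1594 in mutant kidneys. Many, such as Slc2a2 (562 and 624 against 9.44 and 11.9) and Cubn (399 and 380 against 30.5 and 13.9), passed the signal filter through wild-type signals. The marker lists were chosen with earlier results of these data known. Stromal markers were higher for 7 of 11, and skeletal muscle markers for 6 of 8, the latter with summed signals of 1977 and 1322 in wild-type and 7654 and 7443 in mutant kidneys. Of 2 tested hepatocyte markers Afp was lower (1127 and 1562 against 69.7 and 520). The other, Apoa2, did not pass (116 and 140 against 110 and 183, limma adjusted p = 0.826). Alb was below the signal filter at 111 and 65.9 against 55.9 and 166. Over all 12 hepatocyte markers the median log2 difference, mutant minus wild type, was 0.04. Endothelial markers were lower for 4 of 9, adrenal cortex markers for 2 of 4 and ureteric bud markers for 2 of 10 with 2 higher, and erythroid markers were higher for 2 of 5. In limma 0 of 4 gonad and 0 of 8 macrophage markers passed, and 0 at an unadjusted p under 0.05. For comparison with these lists, 5.82% of all 13432 genes tested were lower and 6.7% higher. The muscle markers Myog and Myl1 entered the test through their mutant signals. The part of these cell types in the results below was not tested, and in whole-organ RNA fewer cells of a type and less RNA per cell cannot be told apart.

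Among the 44 enzymes tested, Sult1d1 and Gsta2 fell furthest, Sult1a1 and Gstt1 rose most, and 1 of 22 tested cytochromes P450 passed the test. Differences are mutant minus wild type on a log2(signal + 16) scale, with p from limma adjusted by Benjamini-Hochberg over all tested probe sets at a threshold of 0.05. The 40% of probe sets with the lowest mean log2(signal + 16) were not tested, which left 44 of the 97 genes. That mean runs over all 4 arrays, so Sult1d1 and Gsta2 entered through their wild-type signals and Gstt1 through its mutant signals. Some genes not tested moved further, such as Ugt2b37 (-3.39) and Ugt2b5 (-3.11) against Gsta2 (-2.35), and Sult1e1 (2.78) against Gstt1 (1.41). Of these 44, 5 were lower and 5 were higher in the mutant, or 22.7% in all. Over all 13432 genes tested the share was 12.5%, with 5.82% lower and 6.7% higher, against 11.4% in each direction for the enzymes. The median difference was 0.04 over the 44 enzymes and 0.00 over all tested genes. At an unadjusted p under 0.05 the enzymes counted 7 lower and 10 higher of 44, against 1847 lower and 1962 higher of all 13432 genes tested.

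**Figure D1:**
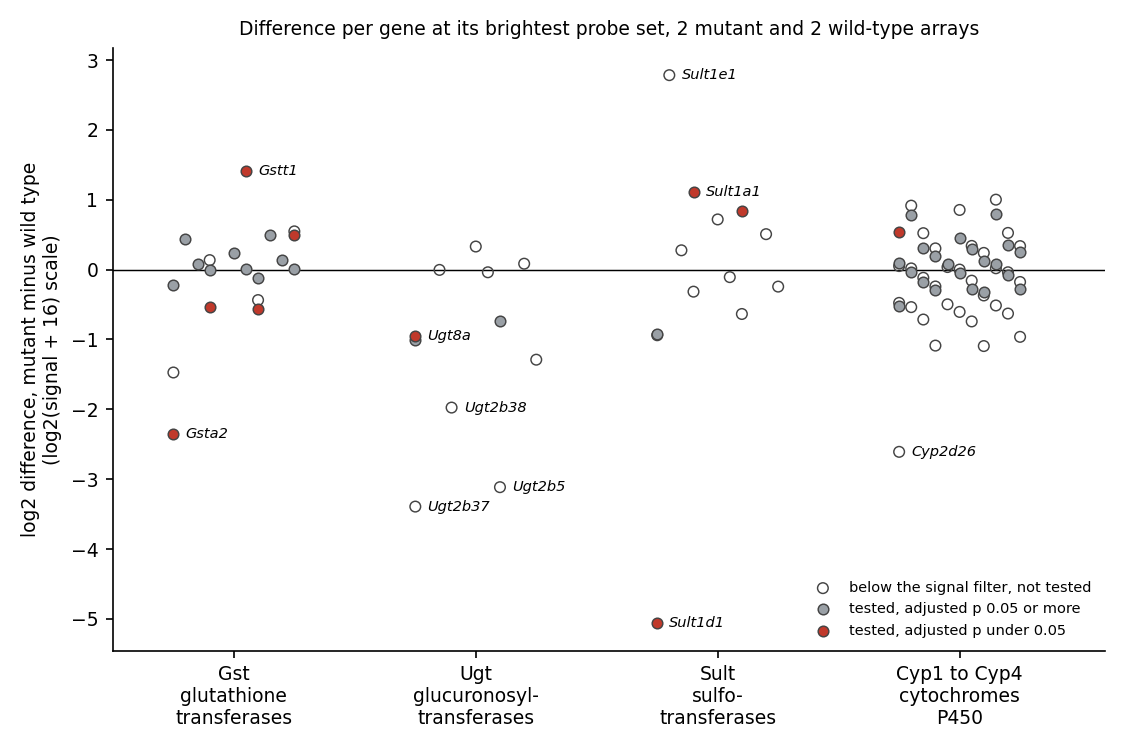
Log2 difference, mutant minus wild type, of each enzyme gene at its brightest probe set, in 1 column per family, with the genes past the threshold marked. Gst genes spread from -2.35 to 1.41, Sult genes reach -5.06, and the tested Cyp genes stay between -0.52 and 0.79.

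The plot of differences by family shows the calls within each family. Over all genes tested the shares were 5.82% lower and 6.7% higher. Gst genes gave 3 lower and 2 higher of 15 tested (median difference 0.01), Sult genes 1 lower and 2 higher of 4 (median -0.04), and Ugt genes 1 lower of 3 (median -0.95). Cyp genes gave 1 higher and none lower of 22 in limma (median 0.09), and at an unadjusted p under 0.05 they gave 3 higher and 0 lower. Over all 13432 genes tested the unadjusted counts were 1962 higher and 1847 lower. The lower Ugt gene was Ugt8a, whose difference is also the Ugt median. Few Ugt and Sult genes were tested, and the difference between families was not tested.

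The 53 genes that were not tested had signals between 1.59 and 303, and the highest signal of a gene on any array was 77.0 in the median. Without the filter all 97 genes entered the fit, and 7 were lower (7.22%) and 4 higher (4.12%) in the mutant. The background without the filter was 6.42% of genes called, 3.02% lower and 3.4% higher. Of the 11 genes called in that fit, 6 were also called with the filter; the other 5 were Ugt2b5, Ugt2b37, Ugt2b38, Cyp2d26 and Sult1e1.

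**Figure D2:**
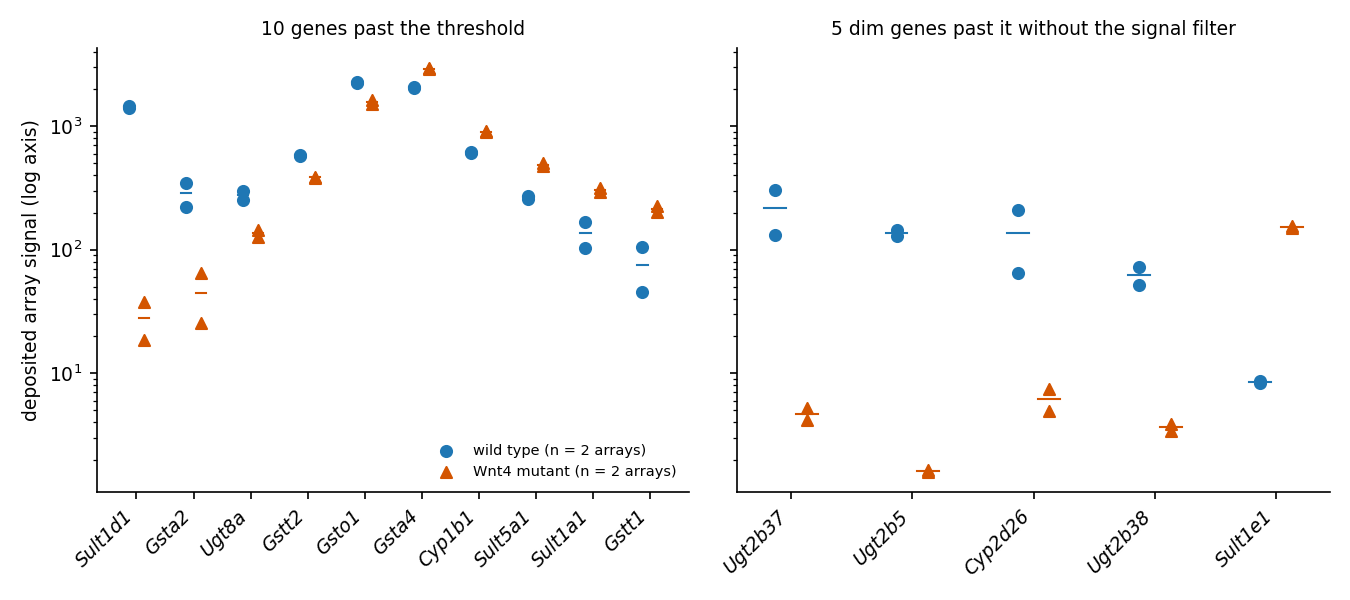
Deposited signal on a log axis of the 10 genes past the threshold (left) and of 5 dim genes past it only without the signal filter (right), with 1 point per array, 2 wild-type (circles) and 2 mutant (triangles), and a short line at each group mean. Wild-type and mutant points do not overlap for any of the 15 genes, which largely follows from choosing genes past the threshold on these same arrays.

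The largest difference among the enzymes belonged to Sult1d1, a sulfotransferase that acts on dopamine and other catecholamines. Its signal was 1444 and 1407 in wild-type kidneys and 18.6 and 37.8 in mutant kidneys. That is well separated, with the mutant values close to the bottom of the signal range. The difference was -5.06 ± 0.25 (SE, 2 arrays a group), 33.4-fold lower (limma adjusted p = 3.52e-05). A dimmer Sult1d1 probe set read 469 and 453 against 4.04 and 10.2, which put its mean log2 value below the filter.

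Sult1e1, the oestrogen sulfotransferase, went the other way. It read 8.30 and 8.69 in wild-type kidneys and 155 and 150 in mutant kidneys, so the gene was near the bottom of the range in one group only. The unfiltered fit put it 2.78 higher (6.89-fold, limma adjusted p = 0.0106), and adding 1 in place of 16 the difference was 4.02.

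Sult1a1, a phenol sulfotransferase, read 104 and 167 in wild-type and 291 and 316 in mutant kidneys. Its difference was 1.11 ± 0.27, 2.16-fold higher (limma adjusted p = 0.0344), and it no longer passed without the signal filter (limma adjusted p = 0.0875). Sult5a1 read 271 and 259 against 499 and 475, a difference of 0.84 ± 0.16 (limma adjusted p = 0.0152). For both genes the mutant values lay above the wild-type values. Sult1c2 did not pass the test at 136 and 145 against 83.8 and 52.2 (difference -0.92, limma adjusted p = 0.128). The other 8 Sult genes were too dim to test, and none of them passed the threshold without the filter.

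Sult1d1 and Sult1e1 are neighbours on chromosome 5, and the 250 bases before each start site are shown here because the adjacent genes moved in opposite directions. The windows are from RefSeq (GRCm38.p6), minus strand, chr5:87569007-87569256 for Sult1d1 and chr5:87591612-87591861 for Sult1e1, written 5′ to 3′. Capitals mark matches to 4 motifs searched on both strands: GTTAAT (part of an HNF1 site), CAAAGTCCA (HNF4), TGACNNNGC (antioxidant response) and GCGTG (xenobiotic response).
Sult1d1: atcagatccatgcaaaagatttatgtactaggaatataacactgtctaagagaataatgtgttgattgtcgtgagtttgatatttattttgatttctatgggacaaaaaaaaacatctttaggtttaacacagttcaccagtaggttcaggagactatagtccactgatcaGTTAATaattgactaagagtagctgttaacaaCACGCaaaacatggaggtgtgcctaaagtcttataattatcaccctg
Sult1e1: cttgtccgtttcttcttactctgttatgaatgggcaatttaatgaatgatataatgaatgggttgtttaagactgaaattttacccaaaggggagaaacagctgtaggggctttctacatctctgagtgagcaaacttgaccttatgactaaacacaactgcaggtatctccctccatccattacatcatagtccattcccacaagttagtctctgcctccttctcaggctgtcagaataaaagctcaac
The Sult1d1 window holds GTTAAT 79 to 74 bases before the start and GCGTG, read on the opposite strand, 47 to 43 bases before it. The Sult1e1 window holds none of these letters.

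The neighbours of these sulfotransferase genes are Ugt2 genes. In RefSeq order the run holds 13 protein-coding genes, Ugt2b34, Ugt2b1, Ugt2b35, Ugt2b36, Ugt2b5, Ugt2b37, Ugt2a3, Ugt2b38, Ugt2a1, Ugt2a2, Sult1b1, Sult1d1 and Sult1e1. All but Ugt2a1 and Ugt2a2, which share a probe set, are among the 97 enzymes. Without the filter 4 of the 11 were lower and 1 was higher past the threshold, where the shares over all genes were 3.02% lower and 3.4% higher. The ends of the run were set by hand, and the count was not tested.

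**Figure D3:**
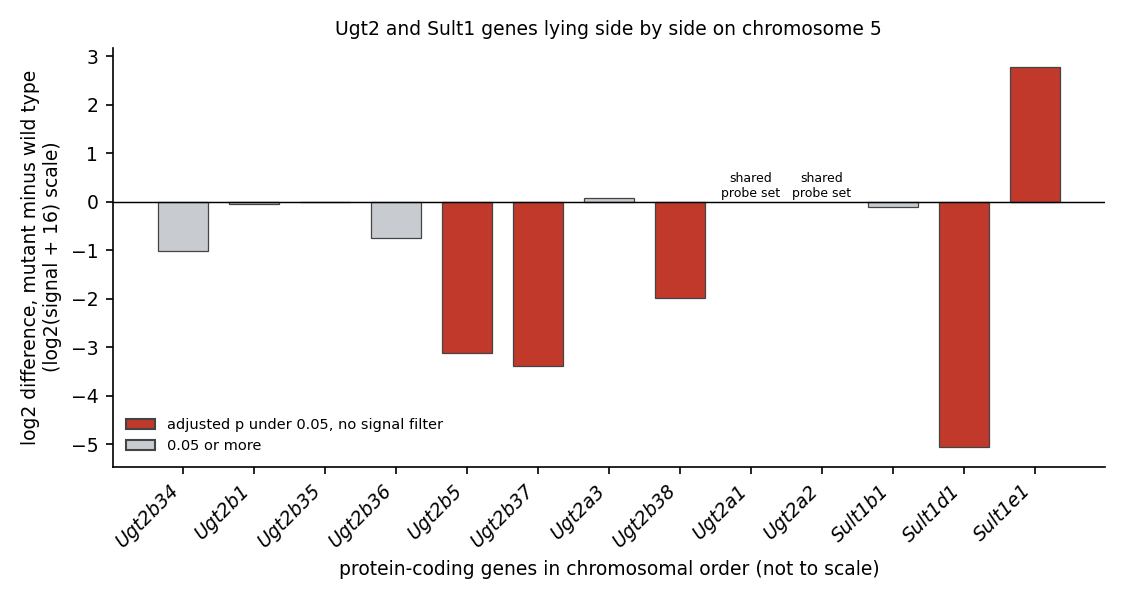
Log2 difference of the 11 measured Ugt2 and Sult1 genes in their order along chromosome 5, distances not to scale, with the genes past the threshold without the filter marked. Lower genes (Ugt2b5, Ugt2b37, Ugt2b38, Sult1d1) stand among genes between -1.01 and 0.08, and Sult1e1 is at 2.78.

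Ugt2b enzymes glucuronidate steroids, bile acids and drugs. Ugt2b37 read 303 and 132 in wild-type kidneys and 5.20 and 4.16 in mutant kidneys, a difference of -3.39 (limma adjusted p = 0.0136 without the filter). For Ugt2b5 the signals were 129 and 145 against 1.59 and 1.65 (difference -3.11, limma adjusted p = 0.00575). Ugt2b38 read 72.6 and 51.4 against 3.44 and 3.87 (difference -1.98, limma adjusted p = 0.0208). All 3 were at the bottom of the range on both mutant arrays, where the added 16 sets the size of a difference; with a pseudocount of 1 that of Ugt2b37 was -5.15 and that of Ugt2b5 -5.71.

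The other Ugt2b genes did not pass the test. Ugt2b34, the brightest, read 215 and 288 against 83.0 and 159 (difference -1.01, limma adjusted p = 0.0906). It passed without mutant replicate 2 (difference -1.42, adjusted p = 0.0305) and with arrays centred on their medians (adjusted p = 0.0151), while without mutant replicate 1 the difference was -0.60. Its second probe set, 147 and 191 against 7.14 and 36.2, was lower past the threshold without the filter (limma adjusted p = 0.0482). Ugt2b36 read 122 and 137 against 45.2 and 108, and the differences of Ugt2b1 and Ugt2b35 were -0.04 and -0.00. All 7 Ugt2b genes had a negative difference, with a median of -1.01.

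The 3 Ugt2b genes that were lower past the threshold also have similar sequence before their start sites, which was noticed after their values were seen. Their windows (RefSeq GRCm38.p6, minus strand) are chr5:87140341-87140590, chr5:87254789-87255038 and chr5:87424204-87424453, and capitals mark the run of 62 bases that all 3 share.
Ugt2b5: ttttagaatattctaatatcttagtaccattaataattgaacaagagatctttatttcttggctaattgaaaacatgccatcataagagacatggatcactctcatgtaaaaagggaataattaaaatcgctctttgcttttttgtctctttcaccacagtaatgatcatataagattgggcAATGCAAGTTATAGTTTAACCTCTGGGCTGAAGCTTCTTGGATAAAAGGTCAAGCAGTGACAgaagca
Ugt2b37: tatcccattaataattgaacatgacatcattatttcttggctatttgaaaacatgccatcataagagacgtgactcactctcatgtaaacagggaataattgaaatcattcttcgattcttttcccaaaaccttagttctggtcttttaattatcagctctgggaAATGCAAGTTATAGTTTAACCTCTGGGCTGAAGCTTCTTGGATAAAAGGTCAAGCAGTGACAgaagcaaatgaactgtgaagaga
Ugt2b38: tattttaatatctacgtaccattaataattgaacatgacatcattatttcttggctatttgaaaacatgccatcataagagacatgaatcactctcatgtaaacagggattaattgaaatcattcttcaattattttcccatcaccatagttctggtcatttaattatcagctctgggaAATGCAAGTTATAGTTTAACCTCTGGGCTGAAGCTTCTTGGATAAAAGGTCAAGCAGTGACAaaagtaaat
The run starts 68, 85 and 71 bases before the start site of Ugt2b5, Ugt2b37 and Ugt2b38, and of 32851 windows in the RefSeq table only these 3 hold it. Ugt2b36, the next most similar, shares at most 24 bases in a row with any of them. Genes this alike can also share probe sequence, so which of the 3 each probe set reads is uncertain.

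Ugt8a matches the naming rule but makes galactosylceramide, a lipid of myelin and kidney, rather than a drug conjugate. It read 255 and 301 in wild-type and 146 and 127 in mutant kidneys, with no overlap. The difference was -0.95 ± 0.23, 1.93-fold lower (limma adjusted p = 0.0362). Ugt8a no longer passed without the signal filter (limma adjusted p = 0.0895). Its dimmer probe set, 142 and 155 against 46.2 and 69.9, was not tested.

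The Ugt1a genes, the main bilirubin and drug glucuronidating genes, share their last exons and were read by 3 probe sets that each name 8 of them. At the brightest the signal was 2851 and 2846 in wild-type and 439 and 511 in mutant kidneys, 5.85-fold lower (limma adjusted p = 2.52e-05). The remaining Ugt1a probe sets were 5.22-fold and 5.02-fold lower (limma adjusted p = 7.39e-05 and 0.000442). Which Ugt1a gene accounts for the signal cannot be read from these probe sets.

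Glutathione S-transferases changed in both directions. Gsta2, an alpha-class transferase, read 348 and 223 in wild-type and 64.2 and 25.7 in mutant kidneys. The mutant arrays were both low, though apart from each other, and the difference was -2.35 ± 0.40, 5.10-fold lower (limma adjusted p = 0.00862). A probe set that names Gsta1, Gsta2 and Gm3776 together read 226 and 213 against 72.6 and 17.9 (4.30-fold lower, limma adjusted p = 0.0251).

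Gsta4, of the same class, conjugates aldehydes from lipid peroxidation and was higher. It read 2045 and 2094 against 2961 and 2901, a difference of 0.50 ± 0.08 (1.41-fold, limma adjusted p = 0.00887). Gsta3 read 147 and 224 against 177 and 188, with overlap. Alpha-class genes were therefore lower (Gsta2), higher (Gsta4) and not past the threshold (Gsta3, limma adjusted p = 0.994).

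Theta-class genes lie together on chromosome 10 in the order Gstt3, Gstt1, Gstt4, Gstt2. Gstt1 read 106 and 45.6 in wild-type and 226 and 204 in mutant kidneys, a difference of 1.41 ± 0.37 (limma adjusted p = 0.0465). Gstt2, a close relative, read 573 and 585 against 391 and 382, a difference of -0.57 ± 0.14 (limma adjusted p = 0.0409). So 2 genes of 1 cluster passed the test in opposite directions. Neither call held without the signal filter (limma adjusted p = 0.120 for Gstt1 and 0.0633 for Gstt2), and leaving out wild-type replicate 2 took the Gstt1 difference to 0.92. The gene next to Gstt1, Gstt3 (274 and 372 against 483 and 434, difference 0.50) did not pass, and Gstt4 was too dim to test.

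Gsto1, an omega-class thiol transferase, read 2251 and 2274 in wild-type and 1500 and 1620 in mutant kidneys. Both mutant values were lower, by 0.53 ± 0.09 on the log2 scale (1.45-fold, limma adjusted p = 0.00979). Its second probe set, a type that can cross-hybridise, read 1736 and 3062 against 1594 and 1407 (limma adjusted p = 0.127). Without wild-type replicate 1 that probe set had the higher mean, with a difference of -1.02, while the first stood at -0.54.

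Bright Gst genes were also among those that did not pass. Gstp1, the pi-class transferase, read 6546 and 6816 in wild-type and 6835 and 6493 in mutant kidneys. The values overlap, and the 95% interval of the difference ran from -0.18 to 0.18. The mu-class gene Gstm5 read 3989 and 3670 against 4443 and 4628 (difference 0.24, 95% interval 0.05 to 0.44, limma adjusted p = 0.112). None of the mu-class genes tested passed the threshold, at differences from -0.22 for Gstm2 to 0.43 for Gstm7 (limma adjusted p = 0.215 and 0.119). A dimmer Gstm7 probe set read 275 and 281 against 207 and 301 (difference -0.15, limma adjusted p = 0.749). Gstm6 was too dim to test, at 80.3 and 34.6 against 5.44 and 13.5 (difference -1.47).

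Of the cytochromes P450, Cyp1b1, which hydroxylates oestradiol and polycyclic aromatics, was the 1 gene past the threshold. It read 607 and 622 in wild-type and 892 and 914 in mutant kidneys, a difference of 0.54 ± 0.12 (1.46-fold, limma adjusted p = 0.0239). The mutant values were both higher at this brightest probe set. At its other probe sets the differences were -0.02 and -0.60 (limma adjusted p = 0.971 and 0.473), and averaging all Cyp1b1 probe sets gave -0.02, so this call rests on 1 probe set.

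Other bright cytochromes P450 did not pass. Cyp2s1 read 864 and 732 against 631 and 663 (difference -0.29, 95% interval -0.60 to 0.01). Cyp4f16, of a subfamily that hydroxylates fatty acids, read 526 and 467 against 617 and 661 (difference 0.36, limma adjusted p = 0.153). Cyp3a11, a major drug-metabolising P450 of liver, read 180 and 281 against 324 and 248, with overlap. At the ends of the tested range were Cyp4b1 at -0.52 and Cyp4f13 at 0.79 (limma adjusted p = 0.253 and 0.127).

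Among dim cytochromes P450, Cyp2d26 was lower without the filter (65.4 and 209 against 4.96 and 7.44, difference -2.61, limma adjusted p = 0.0465). The wild-type values are far apart here. A probe set that names Cyp4a10 and Cyp4a31, fatty acid omega-hydroxylases, read 450 and 400 against 39.3 and 40.2, 7.89-fold lower (limma adjusted p = 0.000387). Of 2 single-gene Cyp4a31 probe sets the brighter had a difference of -0.74 and the dimmer -2.11 (80.4 and 58.5 against 2.11 and 5.26, limma adjusted p = 0.0189 without the filter). Cyp2j5, an arachidonic acid epoxygenase, disagreed between its probe sets, at 0.04 for the brighter and -1.72 for the other (58.6 and 85.3 against 10.4 and 10.6, limma adjusted p = 0.0470 without the filter).

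Over the whole set, 42 pairs of enzyme genes are direct neighbours in RefSeq. The differences had the same sign in 18 pairs and opposite signs in 24. These signs come from the fit without the filter, and some belong to very small differences, such as Cyp2b19 (0.000498). Neighbouring pairs over all genes were not counted for comparison. A promoter window was at hand for 81 of the 97 genes. The HNF4 motif CAAAGTCCA was in the window of 5 of the 81 (6.17%: Cyp2c65, Cyp2c68, Cyp2c70, Cyp3a11 and Cyp3a16), against 0.451% of all genes with a window. GTTAAT was in 9.88% against 7.49%, the antioxidant motif in 6.17% against 11.5% and GCGTG in 23.5% against 30.9%. The 5 genes with the HNF4 motif are related, Cyp2c genes on chromosome 19 and Cyp3a genes on chromosome 5, so they are not independent cases. Of these 5, Cyp2c68, Cyp2c70 and Cyp3a11 were tested and did not pass, at differences of -0.05, -0.32 and 0.31. Cyp2c65 and Cyp3a16 were too dim to test. A match is a description of these letters, not a binding site.

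Around the enzymes stand genes that supply electrons, cofactors and glutathione, regulate the enzymes, run other phase I and II reactions or carry the products. Of 104 such genes in 8 lists, 93 were on the array and 73 were tested, and 12 were lower (16.4%) and 4 higher (5.48%) in the mutant (median difference -0.13). The shares over all tested genes were 5.82% lower and 6.7% higher, against which the counts of each list below can also be read. At an unadjusted p under 0.05 they counted 18 lower and 8 higher of 73, against 1847 lower and 1962 higher of all 13432 genes tested. Lower genes such as Hnf4a, Slc47a1, Slc22a6 and Slc22a2 entered the test through their wild-type signals. Their mean mutant signals were 78.4, 73.8, 70.5 and 77.7. The others are not analysed here or were too dim to test.

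**Figure D4:**
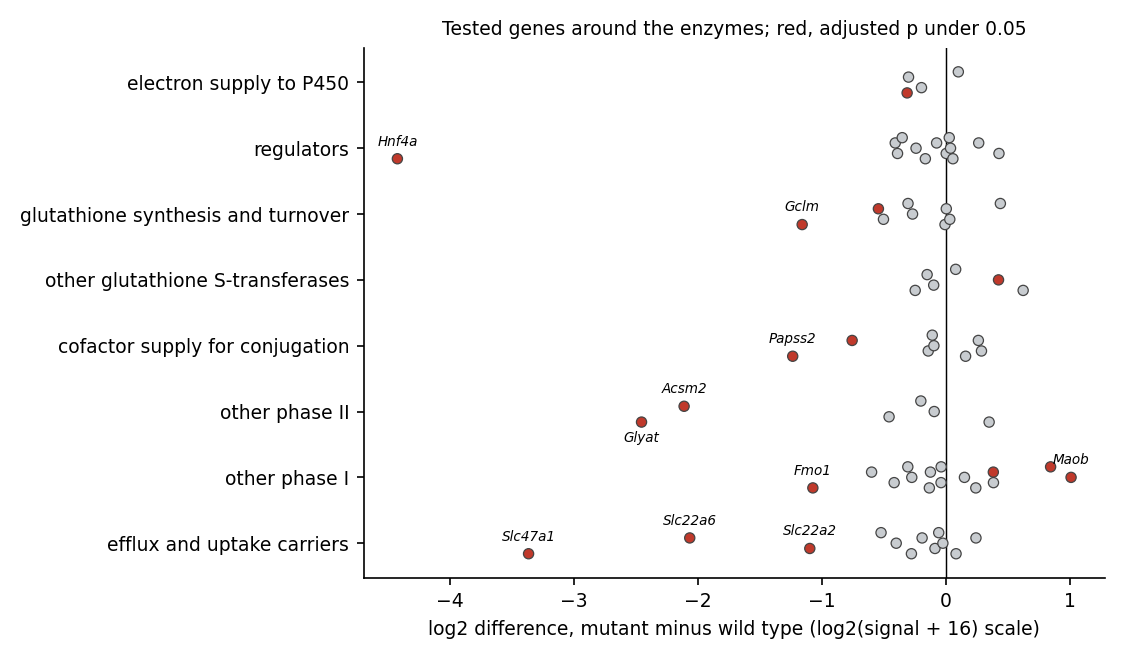
Log2 difference, mutant minus wild type, of the tested genes of 8 accessory lists, 1 row per list, with genes past the threshold in red. Hnf4a is lowest at -4.43, and the carriers and other phase II genes past the threshold are all below 0.

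Among regulators, Hnf4a, a nuclear receptor that drives liver and proximal tubule genes and is also on the proximal tubule marker list, was the 1 of 13 past the threshold. It read 1591 and 1630 in wild-type and 21.9 and 135 in mutant kidneys (difference -4.43, limma adjusted p = 0.00163). Nfe2l2, the NRF2 regulator of antioxidant genes, and Ahr, the aryl hydrocarbon receptor, had differences of -0.08 and 0.05 (limma adjusted p = 0.657 and 0.835).

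Carriers gave 3 lower of 12 tested. Slc47a1 (MATE1, which exports organic cations) read 763 and 903 against 111 and 37.1, a difference of -3.37 (limma adjusted p = 0.00116). The organic anion carrier Slc22a6 (OAT1) and the organic cation carrier Slc22a2 (OCT2) had differences of -2.07 and -1.10 (limma adjusted p = 0.0400 and 0.0423). Slc22a6 is also on the proximal tubule marker list. It no longer passed with a pseudocount of 1, without the signal filter, without the variance trend or with a robust variance fit. Slc22a2 no longer passed when any 1 array was left out (limma adjusted p 0.0921 to 0.129).

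Other phase II genes gave 2 lower of 6, both of the glycine conjugation pathway. Glyat, which joins glycine to acyl-CoA, read 513 and 667 against 74.2 and 117 (difference -2.46, limma adjusted p = 0.000905). Acsm2, which makes the acyl-CoA, had a difference of -2.11 (limma adjusted p = 0.000666).

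In cofactor supply, 2 of 8 were lower. Papss2, which makes the donor PAPS used by sulfotransferases, read 826 and 915 against 320 and 403 (difference -1.24, limma adjusted p = 0.00242). Papss1, which also makes PAPS, did not pass at 3349 and 3151 against 3659 and 3587 (difference 0.16, limma adjusted p = 0.287). Bpnt1, which clears the spent donor, had a difference of -0.76 (limma adjusted p = 0.0193). In glutathione metabolism 2 of 9 were lower. Gclm, the modifier subunit of the enzyme that starts glutathione synthesis, read 725 and 758 against 372 and 280 (difference -1.16, limma adjusted p = 0.00447), while the catalytic subunit gene Gclc had a difference of 0.03 (limma adjusted p = 0.927). Cndp2, a dipeptidase that splits Cys-Gly, had a difference of -0.55 (limma adjusted p = 0.0204).

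Other phase I genes gave 1 lower and 3 higher of 15. Fmo1, a flavin monooxygenase, read 898 and 918 against 438 and 408 (difference -1.08, limma adjusted p = 0.00177), and its relative Fmo2 read 158 and 167 against 284 and 324 (difference 0.84, limma adjusted p = 0.0400). The mitochondrial enzymes Maob and Aldh2 were higher by 1.01 and 0.38 (limma adjusted p = 0.0463 and 0.0435). Microsomal Mgst1 was higher by 0.42, the 1 of 6 other glutathione S-transferases past the threshold (limma adjusted p = 0.0153). Cyb5a, an electron donor to P450, fell by 0.31, the 1 of 4 electron supply genes past it (limma adjusted p = 0.0427). Cyb5a, Fmo2, Maob and Aldh2 no longer passed without the signal filter (limma adjusted p = 0.0808, 0.0899, 0.109 and 0.0842). Centring arrays on their medians lost Cyb5a, Mgst1 and Aldh2. Without the variance trend Cyb5a, Cndp2 and Bpnt1 were among those lost (limma adjusted p = 0.224, 0.149 and 0.111).

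These calls differ in how far they rest on single arrays. Sult1d1 and Gsta2 stayed past the threshold without either mutant array. Without mutant replicate 1 the other 8 enzymes called were lost (adjusted p from 0.0717 to 0.159). Without mutant replicate 2 all of these but Gsto1 were lost (0.0610 to 0.165). The Gsto1 probe set described above still passed there (0.0382), while its second one, which then had the higher mean, did not (0.297). Without wild-type replicate 1 the calls of Gstt2 and Sult1a1 were lost, and without wild-type replicate 2 those of Gstt1, Gstt2 and Ugt8a. Directions of these 10 genes did not turn in any of the 4 fits. Of accessory genes, Hnf4a, Gclm, Papss2, Glyat, Acsm2, Fmo1 and Slc47a1 passed in all 4, and of the higher genes Maob, Fmo2, Mgst1 and Aldh2 none passed without either mutant array.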

How the data were processed

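Linear signal intensities, 1 for each probe set on each array, were deposited by the authors, who used GCOS per the submitters' processing notes. Its version, algorithm and scaling are not given here. The mean after trimming 2% at each end was 500.002 on every array, so values were scaled before deposit. Signals were used as log2(signal + 16) with no further normalization. AFFX controls and the lowest 40% by mean log2 value were left out, so 27022 probe sets were tested (the lowest mean log2 value kept equals a signal of 94.2), with limma 3.58.1 in R 4.3.3 (lmFit, eBayes with trend, Benjamini-Hochberg at 0.05, two-sided). The script was tested on simulated data. The number of arrays limits the precision, and an exact test of 2 arrays against 2 cannot go below p = 0.333. A gene is represented by its tested single-gene probe set of highest mean. Folds are on the log2(signal + 16) scale and understate changes of dim genes. Intervals are 95% limma intervals. Named genes were all those past the threshold, the 4 brightest of each family, the extremes of each family and their further probe sets; others were chosen after their values were seen. Members and lists were chosen with earlier results of these data known. Names came from the platform annotation and windows from RefSeq. The 15 alternatives changed normalization, pseudocount, filter, variance trend, probe set choice, the replicate block or the arrays used.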

Additional observations from a re-analysis of the deposited data

How the results depend on the processing

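With 2 pools a group, the calls depend on how the variance is shared between probe sets and on each array. Without the intensity trend 1 enzyme was lower (Sult1d1) and 1 higher (Sult5a1), with 6 accessory genes lower and 0 higher, and 474 genes were called in all against 1682; the cause was not tested. With the lowest 60% left out, 17 enzymes were tested, of which 2 were lower and 3 higher, and Sult1d1 and Gsta2 were no longer tested; 2 accessory genes were higher, the Sult median was 0.84 from 1 gene and the Cyp median 0.33 from 4. Without a filter 1 accessory gene was higher. Averaging the probe sets of a gene left 3 enzymes and 1 accessory gene higher, with a Gst median of 0.14 and a Sult median of 0.84, and turned Cyp1b1 to -0.023 (limma adjusted p = 0.961). Gstp1, near 0, turned to 0.068 after quantile normalization and to 0.012 after median centring.

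Leaving out 1 array at a time gave 2 to 4 lower and 0 to 5 higher enzymes, each gene taken at its probe set of highest mean over the arrays kept, and 8 to 14 lower and 0 to 5 higher accessory genes. Family medians ranged from -0.033 to 0.11 (Gst), -1.25 to -0.60 (Ugt), -0.20 to 0.11 (Sult) and -0.00 to 0.19 (Cyp), and the Gstp1 difference ranged from -0.041 to 0.033, above 0 without wild-type replicate 2 (0.025) and without mutant replicate 2. The replicate numbers share only a number: deviations of same-numbered arrays correlated at -0.0171. With the replicate number as a block 10 enzymes were called, 9 of them shared; Gstt2 was lost (limma adjusted p = 0.0557) and Ugt2b34 gained (limma adjusted p = 0.0475). Quantile normalization, centring and both pseudocounts kept 9 or 10 of the 10 calls (Gstt1 was lost after quantile normalization and with pseudocount 1, Gstt2 after centring, at limma adjusted p of 0.0524, 0.0522 and 0.0683), and the robust fit and the removal of _x_at and _s_at probe sets kept all 10. Dim genes, including Sult1e1 and the Ugt2b genes, sit where the pseudocount sets the size of the difference.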
